A study of Mus musculus with 8 samples.

Results

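The genes that encode the receptors and ligands of platelet-derived growth factor (PDGF) were followed through 4 populations of stromal cells from the bones of newborn mice. They were taken by symbol from the expression table, which lists 15880 genes, and all 6 were found, each under 1 identifier: the receptors *Pdgfra* and *Pdgfrb* and the ligands *Pdgfa*, *Pdgfb*, *Pdgfc* and *Pdgfd*. *Pdgfb* had a normalized value over 2 in only 2 libraries, both from the population where it was highest, so a filter at that level would keep it only because it differs there. No count over the 6 genes is offered as support for that reason. *Pdgfra* is also the gene whose surface product defined the sort.

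PDGF chains are secreted as dimers that bring receptor tyrosine kinases together at the cell surface. The A and C chains act mainly through PDGFRα, the D chain mainly through PDGFRβ, and the B chain through both, while the C and D chains must be cleaved by proteases before they can bind. In the skeleton and its vessels, PDGFRα is a common surface marker of mesenchymal stromal cells, and PDGF-B from endothelium is known to recruit pericytes that carry PDGFRβ.

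The cells came from pups that were heterozygous for a *Nes-Gfp* transgene on the C57BL/6 background, on postnatal day 1 (P1). The transgene puts GFP under control sequences taken from the nestin gene of the rat, its enhancers for neural tissue included. GFP therefore stands for the activity of those sequences and not for nestin protein. Crushed and collagenase-digested bones of 3 pups made up a pool, blood and endothelial cells bearing CD45, CD31 or Ter119 were gated out, and 15000 to 80000 cells were sorted by GFP and surface Pdgfrα. Libraries with the same replicate number were taken to come from the same pool, so that the populations share animals. This gave GFP+ Pdgfrα+, GFP+ Pdgfrα-, GFP- Pdgfrα+ and GFP- Pdgfrα- cells, all of the same genotype, strain and age and untreated, with 2 libraries each and 8 in all.

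To give the normalized value of a gene, 0.5 was added to its reads and the result expressed per 1000000 of the library's effective size. Total reads on genes were 3564158 in replicate 1 and 3329432 in replicate 2 of GFP+ Pdgfrα+ cells, and 3644103 and 3427644 for GFP+ Pdgfrα- cells. The GFP- Pdgfrα+ libraries had 3869275 and 3221217 reads, and the GFP- Pdgfrα- libraries 4058258 and 5302762. A gene with 3 reads, taken here as the floor, has a value of 0.825 to 1.04. Because the cDNA was amplified, floors and count intervals cover counting error only. Differences were tested by limma on log2(value + 1) over all 8 libraries, with Benjamini–Hochberg (BH) adjustment over the 15880 genes. Genes with an adjusted p-value up to 0.05 are referred to as called. On this scale genes with low values change by less than their true ratio. An exact permutation of 2 libraries against 2, two-sided, reaches no lower than p = 0.333, and the p-values therefore depend on limma sharing its estimate of spread among genes.

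*Pdgfra* (ENSMUSG00000029231; chromosome 5, 75548316 to 75594229, plus strand, 24 exons, build NCBIM37) encodes PDGFRα, the receptor used for the gate. Its value was 839 in replicate 1 and 794 in replicate 2 of GFP- Pdgfrα+ cells, and 733 and 754 for GFP+ Pdgfrα+ cells. The GFP+ Pdgfrα- libraries had 18.1 and 10.4, and the GFP- Pdgfrα- libraries 3.30 and 4.36. RNA followed the surface gate without overlap: every Pdgfrα+ library lay above every Pdgfrα- library. The lowest Pdgfrα+ value was 40.5 times the highest Pdgfrα- value. In these bulk samples, fewer cells with a transcript and less of it per cell cannot be told apart.

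The *Pdgfra* transcript was 213-fold higher on the Pdgfrα+ side in GFP- cells and 52.2-fold higher in GFP+ cells, as ratios of means. On the log2 scale the gate difference was 7.41 in GFP- cells (95% interval 6.94 to 7.88, adjusted p = 1.26e-10, limma with BH) and 5.66 in GFP+ cells (5.18 to 6.13). The gate difference was smaller in GFP+ cells by an interaction term of -1.75 (-2.42 to -1.08, adjusted p = 6.19e-04, limma). Without surface Pdgfrα, GFP+ cells still had 3.72-fold more *Pdgfra* than GFP- cells, a log2 difference of 1.62 (1.15 to 2.09, adjusted p = 4.95e-05, limma). With quantile normalization that difference was 1.03 and the interaction -1.04, and both were still called. Between the Pdgfrα+ populations, which are neighbours at the top of the order, the interval of the log2 difference ran from -0.61 to 0.34, so a difference of either sign in that range remains possible.

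Many genes separated the gate as *Pdgfra* did. Of the 15880 genes, 2598 (16.4%) had all 4 Pdgfrα+ libraries above all Pdgfrα- libraries, and 75 (0.472%) did so by at least 10 times. *Pdgfra* ranked 7 by that ratio, in which genes without reads enter at the value of the added 0.5 reads. The genes ranked 1 and 3, *Mfap5* and *Smoc2*, were chosen after their values were seen, and their ratios were 119 and 61.4. *Mfap5* encodes a microfibril protein and *Smoc2* a matrix glycoprotein. Of the other PDGF genes only *Pdgfd* separated the gate in this sense, with a ratio of 3.79, against 0.776 for *Pdgfrb*, 0.279 for *Pdgfc*, 0.184 for *Pdgfa* and 0.026 for *Pdgfb*.

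By log2 difference *Pdgfra* ranked 9 in GFP+ cells and 3 in GFP- cells. Next to it in GFP+ cells were *Kctd12* at 5.78, *Adamtsl3* at 5.76 and *4833403I15Rik* at 5.49. The place of *Kctd12* is uncertain, as its GFP+ Pdgfrα- libraries had 0.121 and 23.0. In GFP- cells its neighbours were *Tnxb* at 8.61, *Kctd12* at 7.84 and *Mfap5* at 7.36. The place of *Pdgfra* depended on the treatment of low values, and with a pseudocount of 0.1 its rank was 22 in GFP+ and 11 in GFP- cells. Ranked by the moderated statistic of limma, *Pdgfra* stood at 5 in GFP+ cells and 48 in GFP- cells.

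**Figure D1:**
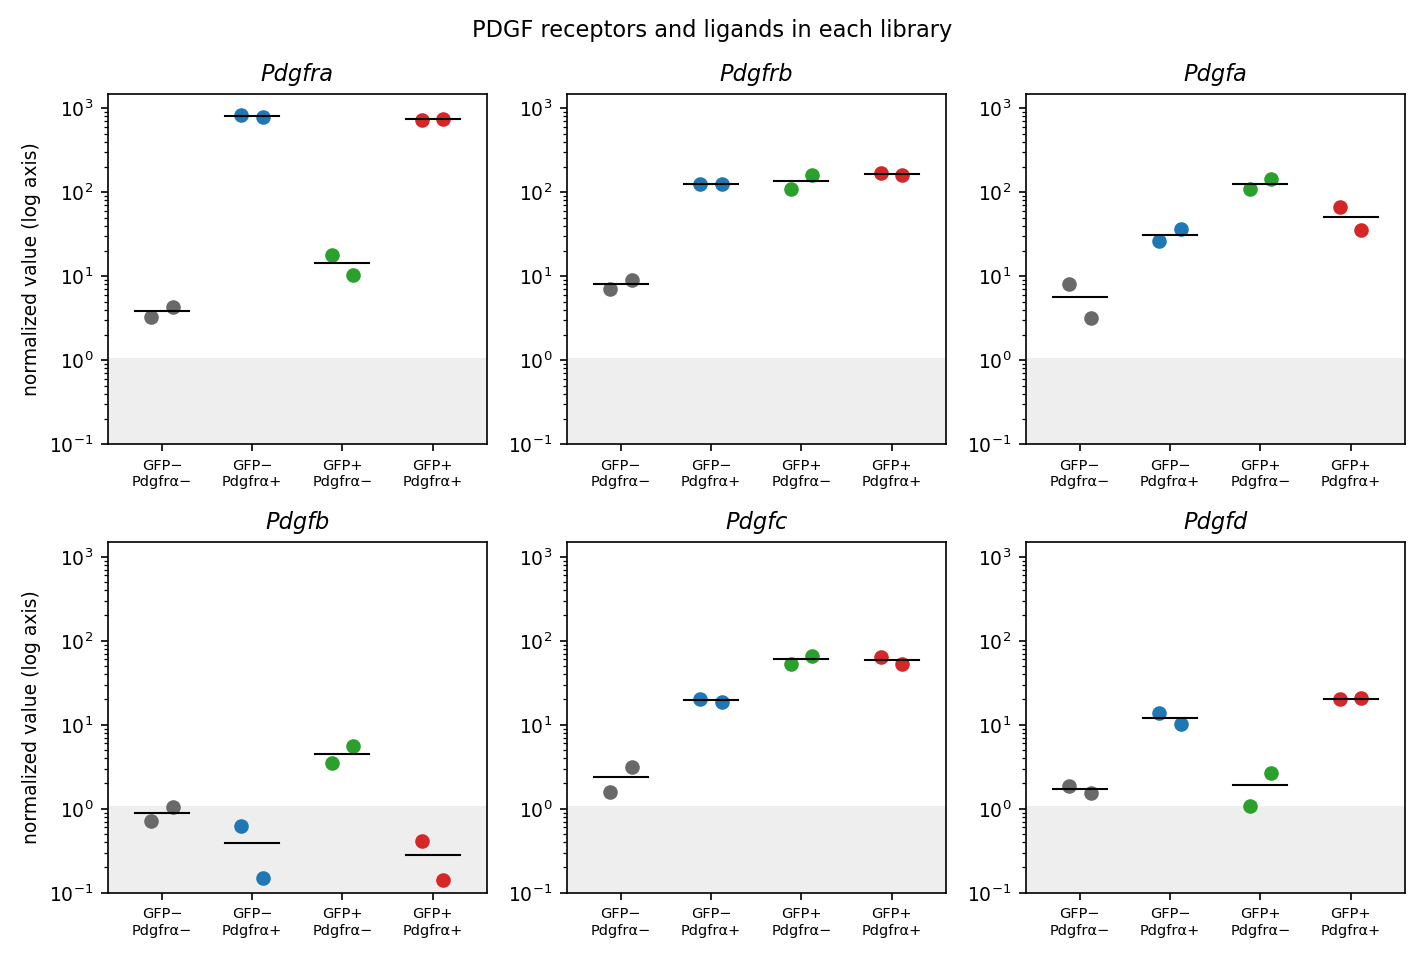
Normalized value (log axis) of each PDGF receptor and ligand gene in the 4 populations. Points are libraries, 2 per population, lines are population means, and the grey area lies under the value of 3 reads. *Pdgfra* reaches 733 to 839 on the Pdgfrα+ side and 3.30 to 18.1 on the Pdgfrα- side, whereas *Pdgfrb* is low only in GFP- Pdgfrα- cells.

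*Pdgfrb* (ENSMUSG00000024620; chromosome 18, 61204804 to 61244715, plus strand, 24 exons) encodes PDGFRβ, the receptor of pericytes and other mural cells. It was 169 and 161 in GFP+ Pdgfrα+, 110.4 and 159.9 in GFP+ Pdgfrα- cells and 126 and 124 in GFP- Pdgfrα+ cells. In GFP- Pdgfrα- cells it was 7.04 and 9.08, below every other library. The order of the means was 165 ± 5.69 (SD, n = 2) for GFP+ Pdgfrα+, 135 ± 35.0 (SD, n = 2) for GFP+ Pdgfrα-, 125 ± 1.55 (SD, n = 2) for GFP- Pdgfrα+ and 8.06 ± 1.44 (SD, n = 2) for GFP- Pdgfrα- cells. *Pdgfrb* RNA thus split the double-negative cells from the rest. In GFP+ cells the closest libraries across the gate nearly met, at 161 on the Pdgfrα+ and 159.9 on the Pdgfrα- side.

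In GFP+ cells the log2 gate difference of *Pdgfrb* was 0.31, not called by limma (interval -0.11 to 0.73, adjusted p = 0.286), and over the alternatives it ran from 0.044 to 0.57. The next neighbours in the order, GFP+ Pdgfrα- and GFP- Pdgfrα+ cells, overlapped and differed by 0.086 (-0.34 to 0.51, adjusted p = 0.794, limma), a sign that turned to -0.18 when replicate 2 of the GFP+ Pdgfrα- cells was left out (adjusted p = 0.604, limma, in a range of 0.288 to 0.886 among the alternatives). In GFP- cells *Pdgfrb* was 15.5-fold higher on the Pdgfrα+ side (log2 3.81, 3.39 to 4.23, adjusted p = 7.62e-09, limma). GFP+ Pdgfrα- cells also exceeded GFP- Pdgfrα- cells 16.8-fold (log2 3.89, adjusted p = 1.16e-08, limma). The interaction was -3.50 (-4.10 to -2.90, adjusted p = 1.14e-06, limma), so the gate difference of *Pdgfrb* was smaller in GFP+ than in GFP- cells.

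The balance of the receptors can be compared per kb of exonic length. In value per kb, *Pdgfra* exceeded *Pdgfrb* 3.53 and 3.81 times in the GFP+ Pdgfrα+ libraries and 5.41 and 5.21 times in the GFP- Pdgfrα+ libraries. *Pdgfrb* exceeded *Pdgfra* 7.50 and 18.9 times per kb in the GFP+ Pdgfrα- libraries, and 2.62 and 2.56 times in the GFP- Pdgfrα- libraries. On this scale the more abundant receptor RNA changed with the gate on both sides of GFP. The level of *Pdgfrb* per kb was 20.1 and 29.2 in GFP+ Pdgfrα- cells, close to the 23.0 and 22.6 of GFP- Pdgfrα+ cells, while that of *Pdgfra* was 2.68 and 1.55 against 125 and 118.

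*Pdgfa* (ENSMUSG00000025856; chromosome 5, 139451968 to 139473324, minus strand, 12 exons) encodes the A chain, a ligand of PDGFRα. Its value was 111 and 143 in GFP+ Pdgfrα-, 67.3 and 35.5 in GFP+ Pdgfrα+, 26.3 and 36.4 in GFP- Pdgfrα+ cells and 8.19 and 3.18 in GFP- Pdgfrα- cells. The GFP+ Pdgfrα- libraries were the highest and the GFP- Pdgfrα- libraries the lowest, and the Pdgfrα+ populations overlapped. Exons of *6330403L08Rik* on the opposite strand share 813 bases with *Pdgfa*, and because the library kit was not stated to keep the strand, reads there cannot be assigned to either gene. *6330403L08Rik* had 17.8 and 22.0 in GFP+ Pdgfrα- cells and at most 10.5 in any other library.

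Against the gate, *Pdgfa* went in opposite directions on the sides of GFP. In GFP+ cells it was 2.47-fold higher on the Pdgfrα- side, a log2 difference of -1.35 (-2.16 to -0.54, adjusted p = 0.0199, limma). In GFP- cells it was 5.52-fold higher on the Pdgfrα+ side, a log2 difference of 2.37 (1.56 to 3.18, adjusted p = 1.39e-04, limma). The latter ran from 1.80 to 2.93 over the alternatives, as the GFP- Pdgfrα- libraries differed, with 8.19 and 3.18. The interaction of -3.72 was called (-4.86 to -2.57, adjusted p = 1.23e-04, limma). The negative call in GFP+ cells was lost in limma without the mean-variance trend (adjusted p = 0.0793), without replicate 2 of GFP+ Pdgfrα+ cells (log2 -0.90, adjusted p = 0.182) and without replicate 1 (-1.53, 0.0804) or replicate 2 (-1.16, 0.163) of GFP+ Pdgfrα- cells. Over all its alternatives the adjusted p-value of this difference ranged from 0.00141 to 0.182.

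Among Pdgfrα- cells *Pdgfa* was 22.4-fold higher with GFP (log2 4.36, 3.55 to 5.17, adjusted p = 1.01e-06, limma). Over the alternatives that log2 difference ran from 3.79 to 4.925. GFP+ Pdgfrα- cells exceeded GFP- Pdgfrα+ cells 4.05-fold (log2 1.99, adjusted p = 0.00166, limma). The middle neighbours of the order, GFP+ Pdgfrα+ and GFP- Pdgfrα+ cells, differed by 0.64 in log2 *Pdgfa* (-0.17 to 1.45, adjusted p = 0.398, limma), which was not called and ran from 0.19 to 1.09 over the alternatives.

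*Pdgfb* (ENSMUSG00000000489; chromosome 15, 79826330 to 79845238, minus strand, 7 exons) encodes the B chain. The value was 3.52 and 5.53 in GFP+ Pdgfrα-, 0.718 and 1.06 in GFP- Pdgfrα-, 0.630 and 0.148 in GFP- Pdgfrα+ cells and 0.414 and 0.144 in GFP+ Pdgfrα+ cells. Besides the GFP+ Pdgfrα- libraries only replicate 2 of GFP- Pdgfrα- cells, with 4 reads, was above the floor, and both Pdgfrα+ populations were under it. At so few reads a fitted difference depends on the pseudocount. *Pdgfb* rested on 35 reads in GFP+ Pdgfrα-, 6 in GFP- Pdgfrα-, 2 in GFP- Pdgfrα+ cells and 1 read in GFP+ Pdgfrα+ cells. The ratio of GFP+ Pdgfrα- to GFP+ Pdgfrα+ cells by these reads was 31.0, with a 95% counting interval of 5.22 to 1260.5. Over GFP- Pdgfrα+ cells it was 16.0 (4.12 to 138) and over GFP- Pdgfrα- cells 5.63 (2.34 to 16.4).

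In GFP+ cells the log2 gate difference of *Pdgfb* was -2.10 (-2.94 to -1.25, adjusted p = 0.00199, limma), and it was -4.65 in edgeR on the recovered reads. It stayed negative over its 17 alternatives, from -4.65 to -1.83. The low-value filter among these is no separate check, because *Pdgfb* had values over 2 only in the GFP+ Pdgfrα- libraries. Calls of that population over the others set it against 6 reads or fewer per population. The same limits hold for its other differences given below. Among Pdgfrα- cells the difference with GFP was 1.53 (0.68 to 2.38, adjusted p = 0.0052, limma). That call was lost with quantile normalization (0.83, adjusted p = 0.0739, limma) and with edgeR (2.39, adjusted p = 0.0608), within a range of 0.00343 to 0.0739. Against GFP- Pdgfrα+ cells the log2 difference of GFP+ Pdgfrα- cells was 1.99 (adjusted p = 0.00222, limma), and 3.86 in edgeR, with adjusted p-values of 0.0019 to 0.029 among the alternatives. The lower neighbours in the order of *Pdgfb*, GFP- Pdgfrα- and GFP- Pdgfrα+ cells, were not called apart (log2 gate difference -0.46, -1.31 to 0.39, adjusted p = 0.328, limma), except with quantile normalization (-1.04, adjusted p = 0.0275, limma, range up to 0.741). The Pdgfrα+ populations, both under the floor, are not compared for *Pdgfb*. The interaction of -1.64 (-2.83 to -0.44, adjusted p = 0.0292, limma) kept its call in 6 of 16 alternatives, in which the adjusted p-value ran from 0.0157 to 0.254. The term itself ran from -3.18 to -0.91. Calls were lost where it was larger, at -3.18 in edgeR, -2.62 in voom and -2.48 with a pseudocount of 0.1. They were also lost where it was smaller, at -0.91 with quantile normalization and -1.21 with centring.

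*Pdgfc* (ENSMUSG00000028019; chromosome 3, 80840338 to 81017962, plus strand, 7 exons) encodes the C chain, which needs cleavage to bind PDGFRα. It was 53.3 and 66.5 in GFP+ Pdgfrα-, 64.5 and 52.5 in GFP+ Pdgfrα+, 20.5 and 18.6 in GFP- Pdgfrα+ cells and 1.58 and 3.18 in GFP- Pdgfrα- cells. The GFP+ populations overlapped at the top, the GFP- Pdgfrα+ libraries lay between, and the GFP- Pdgfrα- libraries were lowest. *Gm16000*, a transcript on the opposite strand that is not listed in the table, shares 147 exonic bases with *Pdgfc*, and reads there cannot be told apart by strand.

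*Pdgfc* was not called across the gate in GFP+ cells, where the libraries overlapped and the log2 difference was -0.033 (-0.63 to 0.57, adjusted p = 0.950, limma). That sign turned without replicate 2 of GFP+ Pdgfrα+ cells (0.11, adjusted p = 0.865, limma) or replicate 2 of GFP+ Pdgfrα- cells (0.12, adjusted p = 0.862, limma), in a range of 0.75 to 0.984. In GFP- cells *Pdgfc* was 8.21-fold higher on the Pdgfrα+ side (log2 2.64, 2.04 to 3.24, adjusted p = 4.29e-06, limma), and the interaction was -2.68 (-3.52 to -1.83, adjusted p = 1.52e-04, limma). With GFP it was 25.2-fold higher among Pdgfrα- cells (log2 4.20, 3.60 to 4.80, adjusted p = 1.10e-07, limma).

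Among Pdgfrα+ cells *Pdgfc* was 2.99-fold higher with GFP, a log2 difference of 1.53 (0.93 to 2.13, adjusted p = 0.00691, limma). This call ended without replicate 1 of GFP+ Pdgfrα+ cells (1.38, adjusted p = 0.0776, limma) and without replicate 1 (1.60, 0.058) or replicate 2 (1.46, 0.086) of GFP- Pdgfrα+ cells. Over the alternatives its adjusted p-value ranged from 0.0011 to 0.086. GFP+ Pdgfrα- cells also exceeded GFP- Pdgfrα+ cells in *Pdgfc*, 3.06-fold (log2 1.56, adjusted p = 0.00115, limma).

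*Pdgfd* (ENSMUSG00000032006; chromosome 9, 6168612 to 6378843, plus strand, 7 exons) encodes the D chain, which is also activated by cleavage. It was 20.3 and 20.6 in GFP+ Pdgfrα+, 13.7 and 10.2 in GFP- Pdgfrα+, 1.09 and 2.70 in GFP+ Pdgfrα- cells and 1.87 and 1.53 in GFP- Pdgfrα- cells. As with *Pdgfra*, and with 16.4% of all genes, every Pdgfrα+ library lay above every Pdgfrα- library. Alone among the ligands, *Pdgfd* RNA was called with the gate in the same direction on both sides of GFP.

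*Pdgfd* was 10.8-fold higher on the Pdgfrα+ side in GFP+ cells (log2 2.94, 2.09 to 3.79, adjusted p = 1.90e-04, limma) and 7.06-fold higher in GFP- cells (log2 2.26, 1.41 to 3.11, adjusted p = 3.03e-04, limma). The Pdgfrα- side rested on 14 reads in GFP+ and 12 reads in GFP- cells, so the size of both folds is uncertain. The interaction was 0.69 (-0.51 to 1.89, adjusted p = 0.340, limma), and not called. It ran from 0.28 to 1.43 over its 16 alternatives and was called in none of them. At the top of the order, GFP+ Pdgfrα+ and GFP- Pdgfrα+ cells differed by 0.73 in log2 *Pdgfd* (-0.12 to 1.58, adjusted p = 0.351, limma). At the bottom, GFP+ Pdgfrα- and GFP- Pdgfrα- cells overlapped and differed by 0.047 (-0.80 to 0.90, adjusted p = 0.936, limma), a sign that was negative in 5 alternatives, from -0.65 with quantile normalization (adjusted p = 0.180, limma, range up to 0.976) to -0.043 without replicate 2 of GFP- Pdgfrα- cells. With GFP alone against Pdgfrα alone, *Pdgfd* was 6.32-fold higher for Pdgfrα alone (log2 -2.21, adjusted p = 0.00115, limma).

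**Figure D2:**
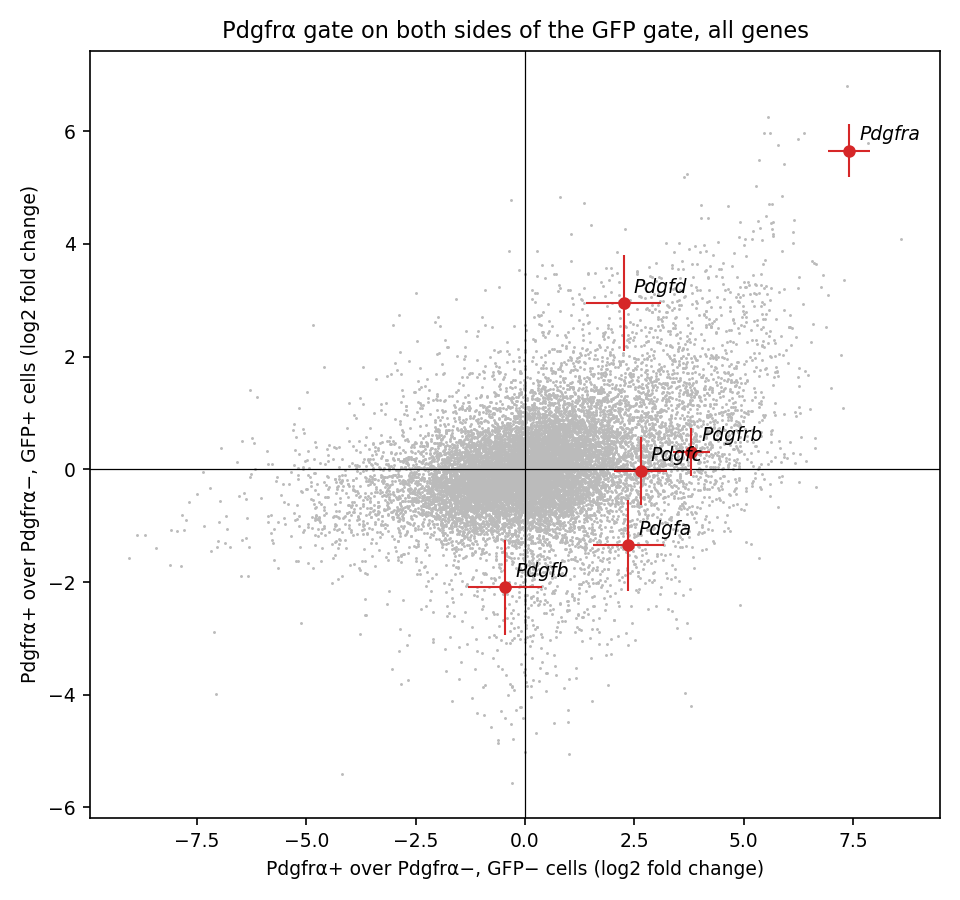
Log2 difference across the Pdgfrα gate in GFP- cells (horizontal axis) and in GFP+ cells (vertical axis). Grey points are all 15880 genes, red points are the PDGF genes with 95% intervals from limma. *Pdgfra* and *Pdgfd* are positive on both axes, *Pdgfrb* and *Pdgfc* lie near 0 on the vertical axis, and *Pdgfa* is positive at 2.37 in GFP- and negative at -1.35 in GFP+ cells.

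The ligands together can be compared as a sum of values per kb of exonic length. That sum was 47.6 and 61.8 in GFP+ Pdgfrα-, 40.9 and 28.3 in GFP+ Pdgfrα+, 17.1 and 18.6 in GFP- Pdgfrα+ cells and 3.78 and 2.50 in GFP- Pdgfrα- cells. *Pdgfa* took 74.7% and 74.4% of the summed ligand value per kb in GFP+ Pdgfrα- cells, and 52.7% and 40.2% in GFP+ Pdgfrα+ cells. *Pdgfc* took 22.0% and 21.1% in GFP+ Pdgfrα- cells and 31.0% and 36.4% in GFP+ Pdgfrα+ cells on the same scale. *Pdgfd* took 15.9% and 23.3% of the sum per kb in GFP+ Pdgfrα+ cells and 25.8% and 17.6% in GFP- Pdgfrα+, 15.8% and 19.6% in GFP- Pdgfrα- cells, where the sum was lowest, and 0.736% and 1.40% in GFP+ Pdgfrα- cells. By RNA per kb, then, *Pdgfa* made the largest share in each of the 8 libraries, and *Pdgfb* at most 3.07% outside the GFP- Pdgfrα- libraries. In those its share was 6.51% and 14.5%, on only 2 and 4 reads, the former under the floor. Its value per kb in GFP- Pdgfrα- cells was 0.246 and 0.364. The Pdgfrα+ libraries had 0.216 or less, on 2 reads or fewer, so no order is read. The ligand sum was lowest in GFP- Pdgfrα- cells.

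**Figure D3:**
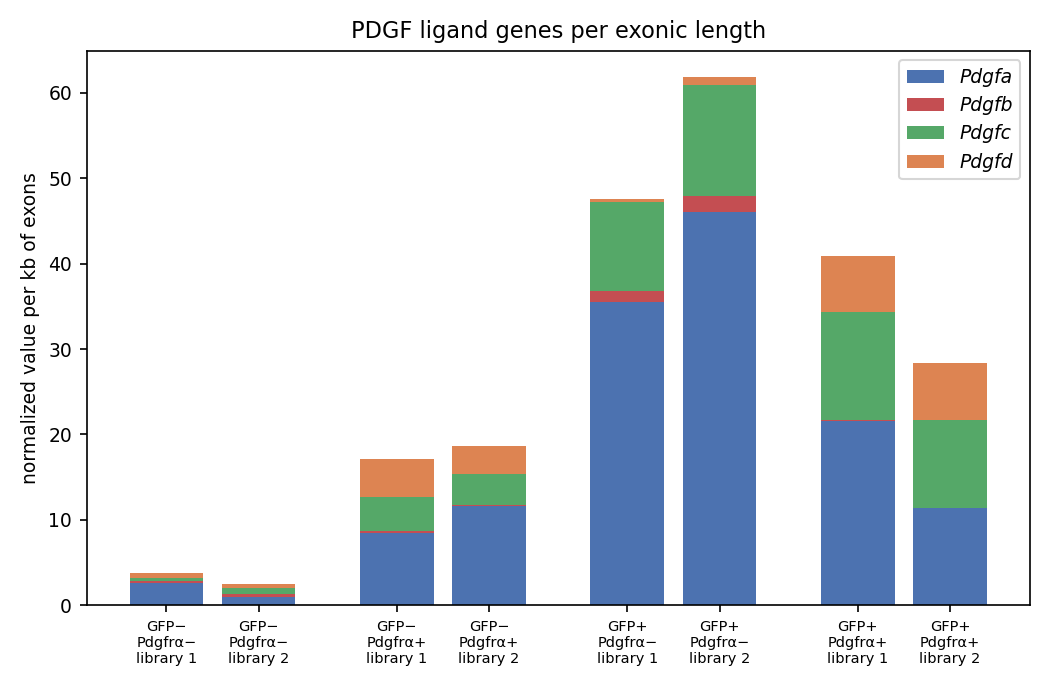
Summed normalized value per kb of exonic length of the 4 PDGF ligand genes, with a stacked bar for each of the 8 libraries, colored by gene. The sum is highest in GFP+ Pdgfrα- cells, at 47.6 and 61.8, where *Pdgfa* makes up 74.7% and 74.4%.

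Counted over the 6 genes, 2 were called higher across the gate in GFP+ cells, *Pdgfra* and *Pdgfd* (13.1% of all genes were called higher), and 2 were called lower, *Pdgfa* and *Pdgfb* (11.1% of all genes). In GFP- cells 5 of the 6 were called higher, all but *Pdgfb*, against 32.9% of all genes, and 0 lower, against 26.8%. The median log2 gate difference of the 6 genes was 0.14 in GFP+ cells, beside -0.025 over all genes, and 2.51 in GFP- cells, beside 0.17 over all genes. These counts and medians include *Pdgfra*, whose calls across the gate followed from the sort and are no result. They also include *Pdgfb*, whose value was over 2 only in the GFP+ Pdgfrα- libraries. Its call in GFP+ cells therefore rests on the same libraries that would let it pass a filter. Of the 4 ligands alone, 1 was called higher and 2 lower in GFP+ cells (median -0.69). In GFP- cells 3 ligands were higher and 0 lower (median 2.31). With GFP among Pdgfrα+ cells only *Pdgfc* was called higher (3.22% of all genes) and no PDGF gene lower (2.13%), with a median of 0.52 beside 0.0047. Of the PDGF genes not called there, *Pdgfra* had a negative and *Pdgfrb*, *Pdgfa* and *Pdgfd* positive differences, while *Pdgfb* was under the floor. With GFP among Pdgfrα- cells 5 PDGF genes were called higher, all but *Pdgfd* (30.1% of all genes), and 0 lower (23.6%), with a median of 2.76 beside 0.15.

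Between the populations positive for GFP alone and Pdgfrα alone, 5 PDGF genes were called by limma, against 27.9% of all genes in either direction. *Pdgfa*, *Pdgfb* and *Pdgfc* were higher with GFP, and *Pdgfra* and *Pdgfd* higher with Pdgfrα. The call of *Pdgfra* followed from the sort. Between GFP+ Pdgfrα+ and GFP- Pdgfrα- cells 5 were called, all higher in GFP+ Pdgfrα+ cells, against 59.3% of all genes in either direction. The largest of these was the log2 difference of *Pdgfra* at 7.28, again set by the sort, followed by *Pdgfrb* at 4.20 and *Pdgfc* at 4.17. *Pdgfb* was the exception at -0.57 (adjusted p = 0.230, limma), a difference that was called with quantile normalization (-1.12, adjusted p = 0.020) and with centring (-1.05, adjusted p = 0.0333), where the range reached 0.504. The interaction was called for 5 PDGF genes, all negative, and *Pdgfd* was the gene not called. Of all genes 44.3% were called in either direction, and 43.1% of those calls were positive. The medians of the 6 genes in these comparisons were 0.82, 3.59 and -2.22, beside 0.031, 0.20 and -0.16 over all genes.

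The background of these counts moved with scaling wherever GFP- Pdgfrα- cells entered. Of the calls across the gate in GFP- cells, 55.1% were higher, and 40.6% after centring each library on its median. The corresponding shares with GFP among Pdgfrα- cells were 56.1% and 38.9%, from GFP- Pdgfrα- to GFP+ Pdgfrα+ cells 55.5% and 39.6% (44.2% with quantile normalization), and for the interaction 43.1% and 59.7%. The median log2 difference over all genes moved from 0.17 to -0.28 across the gate in GFP- cells, from 0.15 to -0.30 with GFP among Pdgfrα- cells, and from 0.20 to -0.28 from GFP- Pdgfrα- to GFP+ Pdgfrα+ cells. For the interaction it moved from -0.16 to 0.27. *Pdgfra*, *Pdgfrb*, *Pdgfa* and *Pdgfc* kept both sign and call in these 4 comparisons under either scaling.

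The genes most like 5 of the PDGF genes were ranked by Pearson r of log2(value + 1) over the 8 libraries, as a description, since the points are only 4 populations of 2 libraries each. For *Pdgfra* they were *Cthrc1*, *A430107O13Rik* and *Aff2* (r = 0.998 each), and 368 of 11003 genes had r over 0.95. For *Pdgfrb* they were *Nkd2*, *Plekhg2* and *Klhl13* (r of 0.997 to 0.998), among 1023 genes over 0.95. *Pdgfa* was most like *Tmtc4*, *Oxr1* and *Ndfip2* (r of 0.993 to 0.994). *Pdgfd* was closest to *Kcnk6*, *Chrdl1* and *Tspan11* (r of 0.985 to 0.988), with 74 genes over 0.95. *Pdgfb*, with the fewest reads, had 17 genes over 0.95, led by *Pnrc1*, *Dusp1* and *Tsga14* (r of 0.969 to 0.974).

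Since *Pdgfra* and *Pdgfd* were the PDGF genes called higher on the Pdgfrα+ side with and without GFP, the sequence before their starts is shown, as listed by RefSeq. Windows of 250 bases were matched for 4 of the 6 genes, and each printed window had 1 exact match to NCBIM37, chr5:75548026-75548275 (plus strand) for *Pdgfra* and chr9:6168236-6168485 (plus strand) for *Pdgfd*. Both strands were searched for the motif TATAAA, for CCAAT boxes, for the GC box motif GGGCGG and for the palindrome CACGTG, all to be shown in capitals. The looser motif CANNTG, of which the palindrome is a case, was only counted.
Pdgfra: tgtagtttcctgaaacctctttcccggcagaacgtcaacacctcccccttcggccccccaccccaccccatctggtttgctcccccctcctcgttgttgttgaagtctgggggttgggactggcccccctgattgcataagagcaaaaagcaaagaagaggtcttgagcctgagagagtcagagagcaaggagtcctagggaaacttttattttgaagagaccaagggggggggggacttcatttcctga
Pdgfd: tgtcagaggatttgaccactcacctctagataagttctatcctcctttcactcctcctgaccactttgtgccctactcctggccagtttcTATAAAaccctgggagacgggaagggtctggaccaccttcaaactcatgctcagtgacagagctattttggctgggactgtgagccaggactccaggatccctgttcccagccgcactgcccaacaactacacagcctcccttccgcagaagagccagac
The *Pdgfd* window held 1 TATAAA, which 12.4% of 32851 promoter windows of the same length hold, and the *Pdgfra* window held 1 CANNTG (66.2% of windows) and none of the other motifs. CCAAT was in 33.8%, GGGCGG in 32.7% and CACGTG in 6.02% of the windows. The GC content was 54.4% for *Pdgfra* and 53.6% for *Pdgfd*, beside a median of 52.4%. The 2 windows listed for *Pdgfa* held 1 and 2 copies of GGGCGG, and that of *Pdgfc* held no match. Such a match describes the letters and does not show a bound site.

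The wider pathway was described by lists of genes that act with PDGF or are relatives of its receptors and ligands. Of their 73 genes, 71 were in the table. Across the gate in GFP+ cells 17 of the 71 were called higher (13.1% of all genes) and 6 lower (11.1%), with a median log2 difference of 0.049 beside -0.025 over all genes. In GFP- cells 43 were higher (32.9% of all genes) and 9 lower (26.8%), with a median of 1.07 beside 0.17. The lists below are small, and differences between them were not tested. Values for genes of these lists are given as replicate 1 and replicate 2, and calls are those of limma.

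Among 6 receptor relatives in the table, 1 was higher and 1 lower across the gate on each side of GFP, beside 13.1% and 11.1% of all genes in GFP+ and 32.9% and 26.8% in GFP- cells. *Pdgfrl*, which encodes a PDGF receptor-like protein without a kinase domain, was 35.2 and 34.6 in GFP+ Pdgfrα+, 28.1 and 17.1 in GFP- Pdgfrα+, 14.7 and 17.4 in GFP+ Pdgfrα- and 1.29 and 0.590 in GFP- Pdgfrα- cells. *Kit*, the receptor of stem cell factor, lies 376712 bases from *Pdgfra* on the same chromosome, a distance taken after its values were seen, and went the other way, at 347 and 266 in GFP- Pdgfrα- cells and at most 13.2 in any other library. Of the 5 VEGF genes, whose products are structural relatives of PDGF chains, 3 were called higher across the gate in GFP+ cells (13.1% of all genes) and 4 in GFP- cells (32.9%). *Vegfc*, like *Pdgfd*, was higher in every Pdgfrα+ library, with 19.5 and 20.0 in GFP+ Pdgfrα+ and 16.5 and 11.4 in GFP- Pdgfrα+ cells, and at most 2.96 in any Pdgfrα- library. *Vegfa*, *Pgf* and *Figf* were so too, with ratios of the lowest Pdgfrα+ to the highest Pdgfrα- value of 1.96, 1.83 and 1.34. *Vegfb* was not, with a ratio of 0.605. Of all genes, 16.4% separated the gate in this way.

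Of 7 genes for processing and binding of PDGF ligands, 4 were higher (13.1% of all genes) and 1 lower (11.1%) across the gate in GFP+ cells, and 5 higher in GFP- cells (32.9%). *Plat*, which encodes the tissue plasminogen activator that cleaves PDGF-C, was 48.5 and 39.2 in GFP+ Pdgfrα+ cells and 28.6 and 20.9 in GFP- Pdgfrα+ cells, against 6.68 and 12.2 in GFP+ Pdgfrα- cells. *Plau*, which encodes the urokinase that cleaves PDGF-D, was highest at 26.3 and 27.7 in GFP+ Pdgfrα- cells, where *Pdgfd* was low, and at most 6.18 elsewhere. *Sparc*, whose product binds the B chain, had a log2 gate difference of 2.55 in GFP+ (adjusted p = 9.64e-06, limma) and 4.25 in GFP- cells (adjusted p = 1.27e-08, limma).

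Among 8 genes of co-receptors and receptor trafficking, 3 were higher across the gate in GFP+ cells (13.1% of all genes) and 5 in GFP- cells (32.9%). *Lrp1*, whose product is phosphorylated downstream of PDGFRβ, was 1330.0 and 1248 in GFP+ Pdgfrα+, 1595 and 1730.5 in GFP- Pdgfrα+, 331 and 422 in GFP+ Pdgfrα- and 32.0 and 40.2 in GFP- Pdgfrα- cells. *Nrp1*, which encodes a co-receptor, was 279 and 344, 229 and 208, 52.3 and 32.5, and 8.19 and 13.3 in the same populations. For both genes every Pdgfrα+ library lay above every Pdgfrα- library, as for 16.4% of all genes.

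Of 20 adaptors and effectors, shared by many receptors, 3 were higher (13.1% of all genes) and 0 lower (11.1%) across the gate in GFP+ cells. In GFP- cells 12 were higher (32.9%) and 5 lower (26.8%). *Shc1*, an adaptor, was 150.1 and 140.1 in GFP+ Pdgfrα+ and 50.4 and 66.2 in GFP+ Pdgfrα- cells (log2 1.31, adjusted p = 1.38e-04, limma). *Pik3cb*, a catalytic subunit of PI3 kinase, was 36.9 and 43.0 in GFP- Pdgfrα- cells and at most 5.66 elsewhere. Of 13 phosphatases and feedback inhibitors, *Ptprk* alone was higher (13.1% of all genes) and *Dusp4* alone lower (11.1%) in GFP+ cells, and 8 were higher (32.9%) and 2 lower (26.8%) in GFP- cells. *Spry1*, a feedback inhibitor of receptor tyrosine kinases, was low only in GFP- Pdgfrα- cells, as *Pdgfrb* was, with 91.0 and 97.0 in GFP+ Pdgfrα+, 119.8 and 147 in GFP+ Pdgfrα-, 72.5 and 66.1 in GFP- Pdgfrα+ and 2.73 and 7.90 in GFP- Pdgfrα- cells. *Acp1*, with a higher mean value per kb than *Spry1* (32.1 against 26.0), went the other way. It was 226 and 289 in GFP- Pdgfrα- cells and at most 56.2 in any other library.

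Of 12 genes that respond to growth factors, 2 were higher (13.1% of all genes) and 3 lower (11.1%) across the gate in GFP+ cells, and 8 higher (32.9%) and 1 lower (26.8%) in GFP- cells. *Egr1*, an immediate early gene, was 3295 and 3811 in GFP+ Pdgfrα- cells against 930.3 and 831 in GFP+ Pdgfrα+ cells (log2 -2.01, adjusted p = 4.51e-05, limma), the direction of *Pdgfa* and *Pdgfb*. *Fos* was 465 and 505 in GFP+ Pdgfrα- and 228 and 172 in GFP+ Pdgfrα+ cells (log2 -1.29, adjusted p = 3.68e-04, limma). *Ier3*, with a log2 gate difference of 2.08 (adjusted p = 0.00371, limma), and *Has2*, with 1.58 (adjusted p = 0.00238, limma), were the 2 higher genes. Such genes respond to many stimuli, tissue digestion among them, and their part in the result was not tested.

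*Nes*, the mouse's own nestin gene, was ordered over the populations as *Pdgfa* was, with means of 162 in GFP+ Pdgfrα-, 64.8 in GFP+ Pdgfrα+, 37.2 in GFP- Pdgfrα+ and 6.33 in GFP- Pdgfrα- cells and an interaction of -3.76 (adjusted p = 5.72e-05, limma). In both genes the gate difference was negative in GFP+ and positive in GFP- cells. Among Pdgfrα+ cells *Nes* was not called with GFP (log2 0.82, adjusted p = 0.213, limma).

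Markers of other cells moved with the populations. The 11 pericyte and smooth muscle genes, all in the table, summed to 2551 and 3288 in GFP+ Pdgfrα- cells, where *Pdgfa* and *Pdgfb* were highest, against 627 and 535 in GFP+ Pdgfrα+, 436 and 447 in GFP- Pdgfrα+ and 94.4 and 154 in GFP- Pdgfrα- cells. *Rgs5* was the most abundant of them in GFP+ Pdgfrα- cells, at 731 and 1035. *Cspg4* was highest outside that population, with 255 and 259.7 in GFP- Pdgfrα+, 205 and 146 in GFP+ Pdgfrα+ and 104 and 147 in GFP+ Pdgfrα- cells. The 7 skeletal muscle genes summed to 719.8 and 733 in GFP+ Pdgfrα- cells, with *Pax7* at 296 and 336, and to at most 58.5 in any other library. The 8 Schwann cell genes summed to 472 and 429.9 in GFP+ Pdgfrα-, 199.7 and 181 in GFP+ Pdgfrα+, 78.9 and 90.0 in GFP- Pdgfrα+ and 26.1 and 43.4 in GFP- Pdgfrα- cells, with *Erbb3* the most abundant in GFP+ Pdgfrα- cells at 131 and 131. *Ngfr* went the other way, with 94.6 and 109 of the sum in GFP+ Pdgfrα+ cells against 33.6 and 23.3 in GFP+ Pdgfrα- cells. The values of *S100b* were 9.80 and 10.2 against 4.73 and 2.44, a difference that was not called (log2 1.31, adjusted p = 0.0533, limma). The part of these cells in the levels of *Pdgfa*, *Pdgfb* and *Pdgfc* was not tested. Between the Pdgfrα+ populations, where *Pdgfc* was called, the 7 osteoblast genes summed to 9793 and 6483 with GFP and 479 and 328 without it, led by *Spp1*, and the 4 tendon genes to 41.2 and 42.8 with GFP and 569.6 and 509 without it, led by *Tnmd*. The 6 chondrocyte genes, led by *Col2a1*, summed to 297 and 374 with GFP and 608 and 1970.3 without it, and 3 of them were called lower with GFP (2.13% of all genes). In Pdgfrα- cells they summed to 67.5 and 97.5 with GFP and 508 and 925 without it, and 5 were called lower (23.6%), while *Sox9* was called higher (log2 1.63, adjusted p = 3.45e-04, limma). Their part in the *Pdgfc* difference was not tested.

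In GFP- Pdgfrα- cells, where *Pdgfrb*, *Pdgfa* and *Pdgfc* were lowest, the 7 erythroid genes, all in the table, summed to 9328 and 15287, led by *Hbb-b1* at 4362 and 7619, although Ter119+ cells had been gated out, and to at most 115 elsewhere. Mitochondrial genes took 36.9% and 39.1% of the reads there, 24.2% and 22.2% in GFP+ Pdgfrα-, 13.0% and 13.7% in GFP+ Pdgfrα+ cells and 14.4% and 14.5% in GFP- Pdgfrα+ cells. The 8 mesenchymal genes, which include *Pdgfra*, summed to 902 and 1118 in GFP- Pdgfrα- cells, with *Col1a1* the most abundant, against 6884 and 5792 in GFP+ Pdgfrα-, 42984 and 39834 in GFP- Pdgfrα+ and 95593 and 74633 in GFP+ Pdgfrα+ cells. Endothelial genes, among them *Pecam1* for the CD31 gate, summed to between 77.0 and 185 over the libraries, with *Eng* or *Tek* the most abundant and *Pecam1* at most 27.9. Of 8 myeloid genes 7 were listed and summed to at most 63.0, with *Lyz2* at most 25.8. The part of any of these cells in the PDGF results was not tested.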

How the data were processed

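Normalized values of 8 libraries were analysed. Per the submitters' processing notes, which name cutadapt, RSEM 1.17, Picard and limma, the authors quantified reads on build NCBIM37 and filtered and normalized them with voom. The deposited unit is a normalized signal, not logged, from which whole reads were recovered for 100% of values (tolerance 0.1 reads). The stated filter, that 2 or more samples exceed 2 counts per 1000000, is failed by 1645 listed genes (10.4%), and all 15880 were tested.

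Values as log2(value + 1) were fitted with limma 3.58.1 in R 4.3.3 (trend, 1 coefficient per population, 4 residual degrees of freedom, 7 comparisons). On recovered reads, edgeR 4.0.16 called 3586 and 9281 genes across the gate in GFP+ and GFP- cells, 893 and 8415 with GFP in Pdgfrα+ and Pdgfrα- cells, 4182 between single-positive populations, 9240.0 between double-positive and double-negative cells and 6644 for the interaction. Python 3.11.15 with matplotlib 3.10.9, scipy 1.17.1, pandas 2.3.3 and numpy 2.4.6 made the tables and figures.

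In the submitters' design text each independent set was pooled from littermates, and equal replicate numbers were taken to share a pool. Their deviations from the population means correlated at 0.004 to 0.081. Between replicates, chi-square over its degrees of freedom was 4.12 to 9.12, above counting noise.

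The genes and lists were chosen with earlier results of these data known. Named by rule were the 6 genes, *Nes*, the leading and defining markers, the 3 genes most like each PDGF gene but *Pdgfc* with a mean of at least 5, and neighbours in rank. The genes printed from each list were chosen out of those with the highest value per length or the largest called gate differences. Others that met this rule are not printed, among them *Gab1*, *Serpine2*, *Ift20* and *Myc*. Alternatives were a pseudocount of 0.1, a low-value filter, fits of the compared populations alone, a replicate block, no trend, quantile normalization, centring, voom, edgeR and leaving out each library.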

Additional observations from a re-analysis of the deposited data

Results flagged for a closer look

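The log2 difference of *Pdgfra* across the Pdgfrα gate was smaller in GFP+ than in GFP- cells, with an interaction term of -1.75. For *Pdgfrb* the same term was -3.50, with a gate difference of 0.31 in GFP+ and 3.81 in GFP- cells. *Pdgfa* had an interaction of -3.72, and its gate difference was negative in GFP+ and positive in GFP- cells. The interaction of *Pdgfb* was -1.64 and rested on a gate difference of -2.10 in GFP+ cells, with few reads in the other populations. *Pdgfc* had an interaction of -2.68, with a gate difference of 2.64 in GFP- cells and -0.033 in GFP+ cells. Each of these differences between the GFP sides was called in limma, but that of *Pdgfb* kept its call in only 6 of 16 alternatives. Over these the term of *Pdgfb* ran from -3.18 to -0.91, so calls were lost at larger as well as smaller values.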

How the results depend on the processing

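Across 372 values recomputed under alternatives that kept all libraries, 358 kept their direction and side of the threshold, 8 were no longer past it, 3 newly passed it and 3 reversed. With a library left out, 318 of 336 kept both, 11 were lost and 7 reversed. The fit with the replicate block changed no call of a PDGF gene, with 4 called across the gate in GFP+ and 5 in GFP- cells, 1 and 5 with GFP, and 3925, 9541, 924 and 8581 genes called in all.

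Genes called with GFP among Pdgfrα+ cells numbered 849, 532 without the mean-variance trend (the cause was not tested) and 246 to 1083 with a library left out. PDGF genes called there numbered 1, and 0 to 1 with a library left out. Across the gate in GFP+ cells 3848 genes were called, and 2158 to 4056 with a library left out. Between the single-positive populations 4427 were called, and 2757 to 4642. Leaving out a library leaves fewer samples, and the lone sample of its population is assumed to vary like the others.

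Reversed without a library were *Pdgfc* across the gate in GFP+ cells (0.11 without replicate 2 of GFP+ Pdgfrα+ cells, and -0.19 to 0.12 over all left-out libraries, the highest without replicate 2 of GFP+ Pdgfrα- cells), *Pdgfb* with GFP among Pdgfrα+ cells (0.048 without replicate 2 of GFP+ Pdgfrα+ cells, 0.15 without replicate 1 of GFP- Pdgfrα+ cells, range from -0.36, on 1 and 2 reads under the floor, so no direction is read), *Pdgfrb* between the single-positive populations (-0.18 without replicate 2 of GFP+ Pdgfrα- cells, range to 0.35) and *Pdgfd* with GFP among Pdgfrα- cells (-0.36 without replicate 2 of GFP+ Pdgfrα- cells, -0.043 without replicate 2 of GFP- Pdgfrα- cells, range to 0.46). The last also reversed with quantile normalization (-0.65), centring (-0.41) and voom (-0.046). None of these 4 differences was called, and the cause of each was not tested. *Pdgfb* rested on 35 reads or fewer in each population.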
